A study of Mus musculus with 56 samples.

Results

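Oligodendrocyte precursor cells are marked by a small group of genes, and the level of these genes was followed in the hippocampus of 56 mice on expression arrays. The 8 genes were chosen as established markers of the lineage: Pdgfra, Cspg4, Olig1, Olig2, Sox10, Gpr17, Cspg5 and Neu4. A gene counted as measured when a probe annotated to it had a detection p under 0.05, against negative control probes, on at least 6 of 56 arrays. By this rule 6 of the 8 genes were measured, out of 9893 measured genes in all. Sox10, a transcription factor of the whole oligodendrocyte lineage, had no annotated probe. The single probe of Olig2, the partner transcription factor of Olig1, was detected on 4 of 56 arrays, so its level is not analysed further.

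All mice were adult male NMRI mice, an outbred stock. In 50 of them status epilepticus had been induced with pilocarpine after N-methylscopolamine, with diazepam given to limit it, and they had chronic epilepsy; 6 naive mice had received no pilocarpine. Vehicle was given daily by oral gavage to the 6 naive mice and to 17 epileptic mice, and the Csf1R inhibitor PLX3397 to 18 epileptic mice at 3 mg/kg and to 15 at 30 mg/kg, so that no naive mouse received the drug. The sample labels give 7 days of dosing and the series text gives 2 weeks, and each sample was labelled as whole hippocampus.

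Oligodendrocyte precursor cells, also called NG2 glia, are the dividing cells from which new myelinating oligodendrocytes arise in the adult brain. Platelet-derived growth factor A, made by neurons and astrocytes, acts through the receptor encoded by Pdgfra and keeps these cells dividing and alive. As they differentiate they lose Pdgfra and Cspg4, pass through a stage marked by Gpr17, and then switch on the myelin genes. PLX3397 blocks the Csf1 receptor, on which microglia depend for survival, and may also act on the structurally related PDGF receptor kinases, which is why the doses were compared here for these genes.

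The signal of the 6 measured genes differed widely. Mean log2 intensity over the 56 arrays was 10.71 for Olig1, 10.29 for Cspg5, 9.06 for Gpr17, 8.35 for Pdgfra, 7.32 for Cspg4 and 7.24 for Neu4. Since the median of all probes was 7.03, the probes of Cspg4 and Neu4 were only slightly above the dim majority, and their differences are compressed on this scale. Signals of different probes are given side by side and were not compared as levels.

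The arrays were of even quality, with between 44.3 and 49.8% of probes detected and a median intensity between 109.2 and 150.8. Replicate 6 of the epileptic vehicle mice and replicate 18 of the 3 mg/kg mice stood apart, with a mean correlation with their own group of 0.971 and 0.973. The submitters' sample numbers fell into 2 runs and 7 sets of 8 numbers, and 13 of the 15 mice at 30 mg/kg were in the second run. No source says whether these numbers mark processing batches. Of 10 listed genes that mark hippocampal pyramidal and granule neurons 6 were measured, and their mean log2 level lay between 9.71 and 9.83 in naive mice and between 9.11 and 9.48 in epileptic vehicle mice. These genes did not move together. At a limma adjusted p under 0.05, Wfs1, Fibcd1 and Pou3f1 were lower in epileptic vehicle than in naive mice. Grp was higher (log2 difference 0.72), and Prox1 (0.32) and Ociad2 (-0.30) did not pass. In bulk tissue, fewer cells of a type and less RNA per cell cannot be told apart, and this holds for every value below.

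Across the 6 genes, differences that passed the test went downwards. Pdgfra, Cspg4 and Gpr17 were lower in epileptic vehicle than in naive mice, and Pdgfra was lower again with PLX3397 at 30 mg/kg, whereas 3 mg/kg changed none of the 6 at the threshold. In the comparison of epileptic vehicle with naive mice, 3 of the 6 genes were lower and 0 higher at an adjusted p under 0.05, beside 26.5% of all genes lower and 22.6% higher. With PLX3397 at 30 mg/kg against epileptic vehicle, 2 of 6 were lower, beside 15.7% lower and 16.3% higher among all genes. For the low dose against epileptic vehicle 0 of 6 passed (Pdgfra alone had an unadjusted p under 0.05), where the background was 16.9% lower and 18.5% higher. Between the doses 1 of 6 was lower at 30 mg/kg, beside 1.25% lower and 0.92% higher. Against naive mice, 2 of 6 were lower with the low dose, where the background was 14.8% lower and 11.5% higher. With the high dose 3 of 6 were lower, and the background was 17.5% lower and 13.1% higher. These comparisons share control mice and are given side by side for that reason. Blocking on sets changed which genes were called: Gpr17 no longer passed in epilepsy (adjusted p = 0.142) or at 30 mg/kg against naive mice (0.0775), and at 30 mg/kg against epileptic vehicle Neu4 no longer passed (0.0673) while Olig1 did (0.00204), as it did against naive mice (0.000397).

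**Figure D1:**
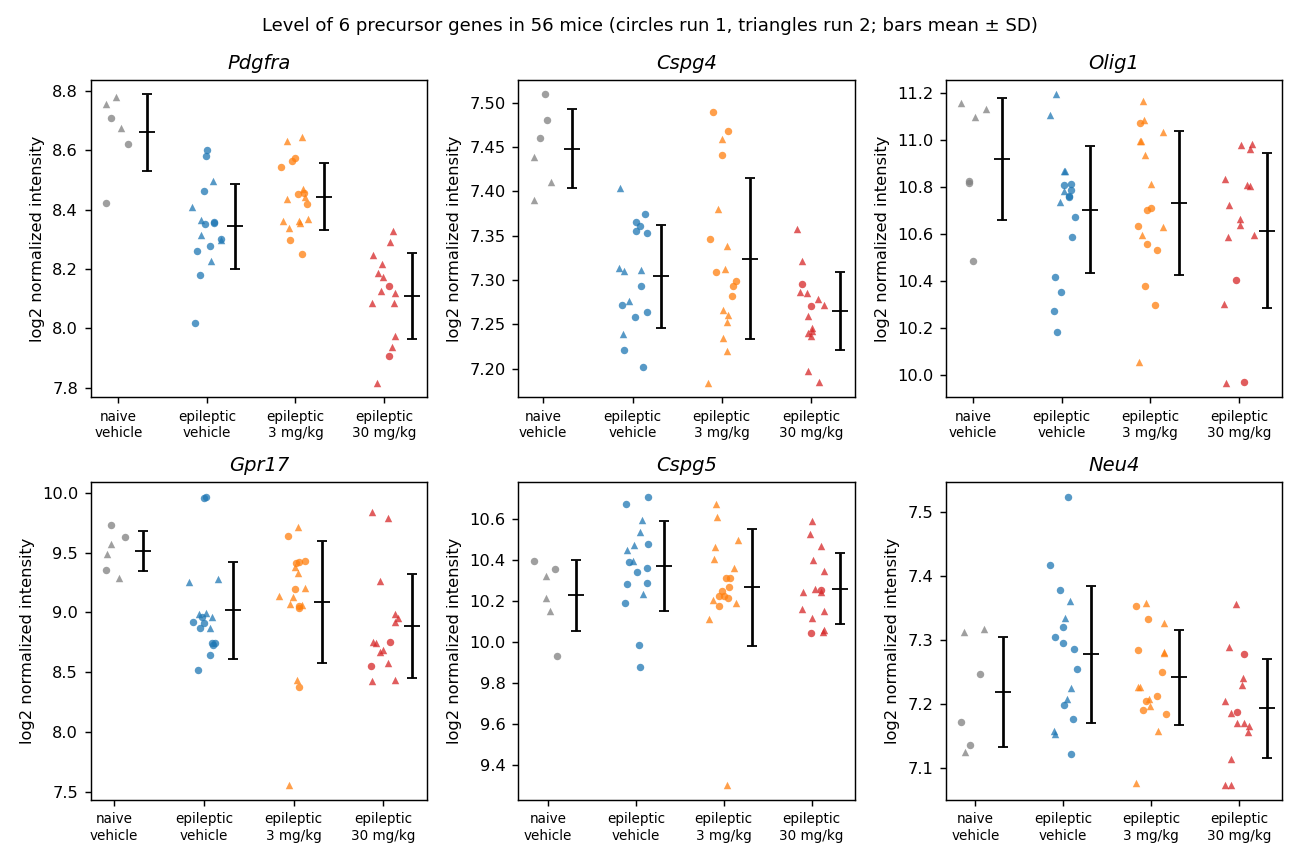
Log2 normalized intensity of each gene in every mouse, by group, with circles for the first run of sample numbers, triangles for the second, and black bars for the mean and SD. The 15 Pdgfra values at 30 mg/kg lie between 7.82 and 8.33, all below the 6 naive mice, which lie between 8.42 and 8.78.

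The split of all genes into higher and lower depended on how arrays were scaled. When arrays were scaled to a common median in place of quantile normalization, 36.7% of all genes were lower and 13.0% higher in epileptic vehicle mice. For the low dose against epileptic vehicle the lower share was then 7.76% and the higher share 29.7%, for the high dose 8.27% and 20.4%, and between the doses 0.758% and 0.263%. Relative to naive mice the lower and higher shares were 16.9% and 5.97% with the low dose, and 23.0% and 4.85% with the high dose. The median of all genes moved by less than 0.1 on the log2 scale in each comparison.

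Pdgfra encodes the receptor for platelet-derived growth factor A and is the most used marker of oligodendrocyte precursors. It lies on chromosome 5 (GRCm38.p6, 75151322 to 75198206), and where its probe lies within the gene is not stated in any source at hand. The 250 bases before an annotated Pdgfra start site at 75152251 (chr5:75152001-75152250, plus strand, RefSeq) are shown because this gene gave the clearest dose difference. That site and its window lie inside the gene span given above, not before it. The window of Cspg4 (chr9:56864854-56865103, plus strand), which ends just before that gene, is shown because both genes were lower in epilepsy. Capitals mark matches on either strand to the E-box CANNTG, the type of site bound by basic helix-loop-helix factors such as Olig1 and Olig2, or to the SOX-type words ACAAT and ACAAAG.
Pdgfra: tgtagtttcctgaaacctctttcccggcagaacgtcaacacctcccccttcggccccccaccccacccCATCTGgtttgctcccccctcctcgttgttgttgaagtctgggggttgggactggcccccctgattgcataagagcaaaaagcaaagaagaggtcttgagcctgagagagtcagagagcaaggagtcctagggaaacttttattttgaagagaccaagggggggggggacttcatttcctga
Cspg4: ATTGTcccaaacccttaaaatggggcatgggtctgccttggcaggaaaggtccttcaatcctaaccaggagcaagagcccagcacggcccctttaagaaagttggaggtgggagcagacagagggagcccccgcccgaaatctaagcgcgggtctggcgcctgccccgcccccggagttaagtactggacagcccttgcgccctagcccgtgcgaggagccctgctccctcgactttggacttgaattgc

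The Pdgfra window held 1 E-box, spelled CATCTG and starting 182 bases before the start site inside the gene, and no SOX-type word. The Cspg4 window held 1 SOX-type word at its far end and no E-box. Of 32851 promoter windows of this length in the table, 66.2% held an E-box, 27.7% held ACAAT and 16.5% held ACAAAG, so single matches of this kind were common. Windows were on hand for 4 of the 8 genes.

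In naive mice Pdgfra ran from 8.42 to 8.78 with a median of 8.69. Epileptic vehicle mice ran from 8.02 to 8.60 (median 8.35), mice at 3 mg/kg from 8.25 to 8.65 (median 8.44) and mice at 30 mg/kg from 7.82 to 8.33 (median 8.12). All 17 epileptic vehicle mice were below the naive median and 13 were below every naive mouse, although the ranges overlapped. The 30 mg/kg mice stood lowest: 15 of 15 were below every naive mouse and below the median of epileptic vehicle mice, and 13 of 15 were below every mouse at 3 mg/kg.

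Pdgfra differed by -19.7% in epileptic vehicle mice relative to naive mice, a log2 difference of -0.32 ± 0.06 (SE, n = 17 and 6, limma adjusted p = 2.71e-05). The high dose differed from epileptic vehicle by a log2 difference of -0.24 ± 0.05 (n = 15 and 17, limma adjusted p = 8.52e-05). Between the doses the log2 difference was -0.33 ± 0.05 (n = 15 and 18, limma adjusted p = 1.42e-06), or -20.7% at the higher dose. Only 10 of 9893 genes had a smaller p between the doses, and 51 had a lower log2 difference. Against naive mice the 30 mg/kg group differed by -31.8%, a log2 difference of -0.55 ± 0.06 (limma adjusted p = 2.09e-09).

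The low dose did not share this direction. At 3 mg/kg the log2 difference from epileptic vehicle was 0.10 ± 0.04, with a 95% confidence interval of 0.01 to 0.19 and a limma adjusted p of 0.0788, and 15 of 18 mice were above the vehicle median. Pdgfra stayed below naive mice at this dose (log2 difference -0.22, 95% interval -0.34 to -0.09, limma adjusted p = 0.0065), but not within the first run alone (-0.14, limma adjusted p = 0.413). It was called higher than in epileptic vehicle mice under 4 of 16 alternatives, which were median scaling (0.20, limma adjusted p = 0.00879), median scaling with sets blocked (0.22, 0.00243), array weights (0.11, 0.0412) and leaving out both arrays that stood apart (0.11, 0.0399).

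The difference of Pdgfra at the high dose also passed when sets or runs of sample numbers were blocked. With the set as a block the log2 difference at 30 mg/kg was -0.25 from epileptic vehicle (limma adjusted p = 0.000167) and -0.35 from 3 mg/kg (limma adjusted p = 2.27e-05). A block for the run gave -0.25 (0.000114) and -0.35 (1.94e-06). Within the second run, which held 13 of the 15 mice, it was -0.23 (limma adjusted p = 0.00814) and -0.32 (0.00107). Within the first run, with 2 mice at 30 mg/kg, the differences were -0.32 and -0.42 and did not pass (adjusted p = 0.123 and 0.645). Inside single sets, Pdgfra was lower than in epileptic vehicle mice in 6 of 6 sets and lower than at 3 mg/kg in 5 of 5 sets that held both groups. In most of these sets, 1 of the compared groups was a single mouse. Median scaling together with the set as a block left the difference from vehicle at -0.15 and outside the threshold (adjusted p = 0.0565), while the difference between doses was -0.37 (0.000336).

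**Figure D2:**
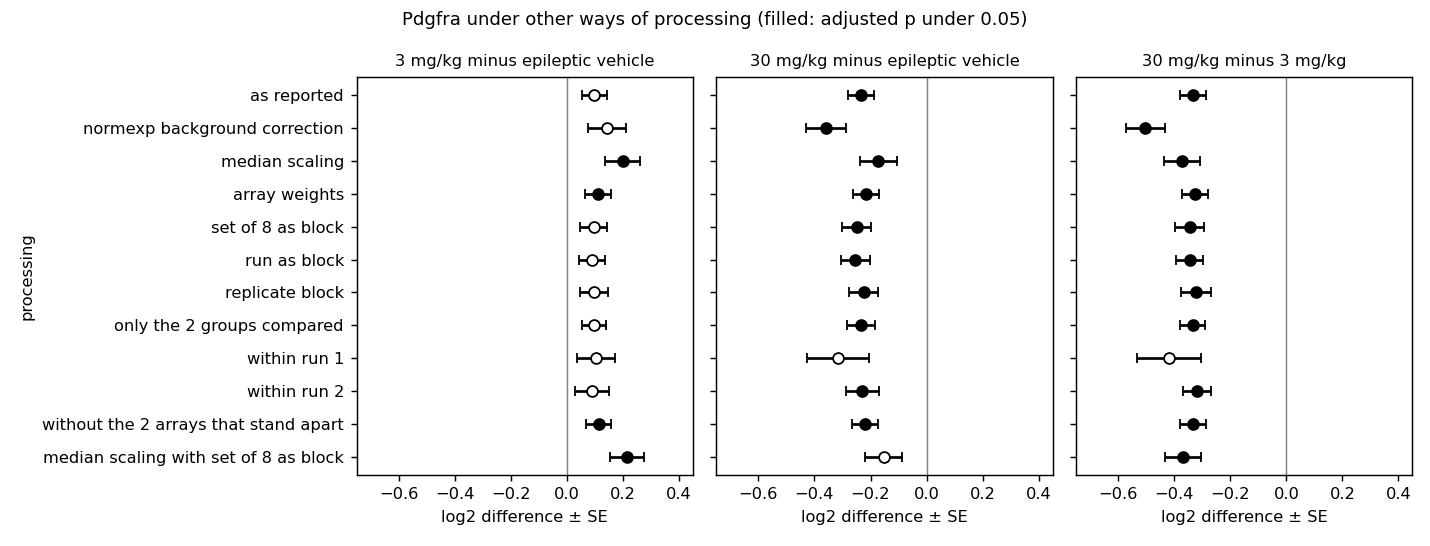
Log2 difference of Pdgfra (x axis, bars give the SE) for the 3 contrasts among epileptic mice under each way of processing (y axis), with filled points where the adjusted p was under 0.05. The difference between doses lies between -0.32 and -0.50 in every row and is open only within the first run, which held 2 mice at 30 mg/kg.

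Cspg4 encodes NG2, the proteoglycan that gives NG2 glia their name, and is also carried by pericytes. It lies on chromosome 9 (56865104 to 56899870). Naive mice ran from 7.39 to 7.51 (median 7.45), epileptic vehicle mice from 7.20 to 7.40 (median 7.31), mice at 3 mg/kg from 7.18 to 7.49 (median 7.30) and mice at 30 mg/kg from 7.18 to 7.36 (median 7.27). Of the 17 epileptic vehicle mice 16 were below every naive mouse, as were 14 of 18 at 3 mg/kg and 15 of 15 at 30 mg/kg.

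The log2 difference of Cspg4 in epilepsy was -0.14 ± 0.03 (n = 17 and 6, limma adjusted p = 0.000223), or -9.5%, on a probe close to background. It was also lower than naive at 3 mg/kg (-0.12, limma adjusted p = 0.0031) and at 30 mg/kg (-0.18, limma adjusted p = 2.49e-05). Within single runs the low dose did not pass against naive mice (adjusted p = 0.13 and 0.0636), nor the high dose within the first run (0.0925). Neither dose passed against epileptic vehicle, with a 95% interval of -0.03 to 0.07 for the low and -0.09 to 0.01 for the high dose. The exception was 3 mg/kg under median scaling with sets as a block (0.07, limma adjusted p = 0.0123). Between the doses the log2 difference was -0.06 with an interval of -0.11 to -0.01 and an adjusted p of 0.196. Within the second run alone the difference in epilepsy was -0.10 and did not pass (limma adjusted p = 0.0841).

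Gpr17 encodes a receptor of precursors that have committed to differentiate, and is expressed for a short stage before myelination. It lies on chromosome 18 (31942999 to 31949890), where it overlaps Lims2. Naive mice formed a tight group from 9.29 to 9.73 (median 9.53). Epileptic vehicle mice ran from 8.52 to 9.97 (median 8.92), mice at 3 mg/kg from 7.55 to 9.71 (median 9.17) and mice at 30 mg/kg from 8.43 to 9.84 (median 8.75). Over both runs the epileptic mice were spread more widely. Of 17 epileptic vehicle mice 15 were below every naive mouse and 2 above, and 13 and 2 of 15 were so placed at 30 mg/kg. In the first run the SD was 0.19 in naive (n = 3) and 0.50 in epileptic vehicle mice (n = 11). In the second run it was 0.15 (n = 3) and 0.17 (n = 6), with 0.60 at 3 mg/kg and 0.46 at 30 mg/kg. Spread was not tested.

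Gpr17 differed by -28.9% in epileptic vehicle relative to naive mice, a log2 difference of -0.49 ± 0.20 (limma adjusted p = 0.0374), and at 30 mg/kg it was lower than in naive mice as well (-0.62 ± 0.21, limma adjusted p = 0.016). At 3 mg/kg it did not pass against naive mice (-0.42, limma adjusted p = 0.111). Treated mice did not differ detectably from epileptic vehicle mice, with a 95% interval of -0.22 to 0.36 at 3 mg/kg and -0.43 to 0.17 at 30 mg/kg. The difference in epilepsy was near the threshold: it was lost when sets were blocked (-0.37, adjusted p = 0.142), with normexp background correction (-0.61, 0.0509), without a detection filter (0.0614), within either run (0.082 and 0.358), and when any of 6 single mice was left out (highest adjusted p = 0.0859). These mice were replicates 1 and 2 of the epileptic vehicle group and replicates 1, 2, 5 and 6 of the naive group. The 30 mg/kg difference from naive mice was lost when sets were blocked (-0.50, 0.0775) and within either run (0.158 and 0.219).

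**Figure D3:**
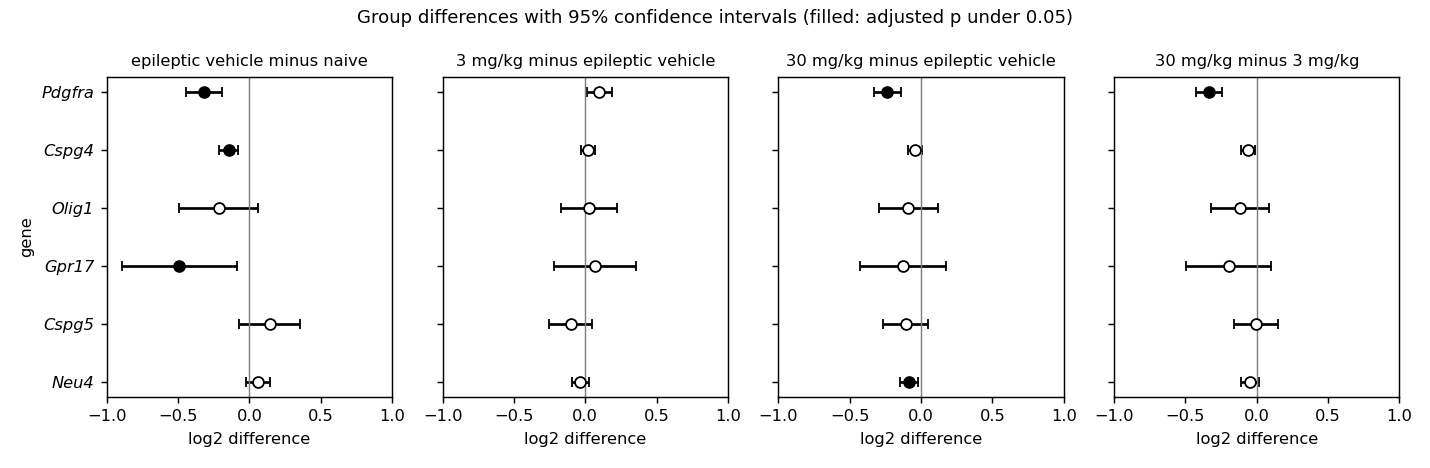
Log2 differences with 95% confidence intervals (x axis) for the 6 genes (y axis) in 4 comparisons, filled where the adjusted p was under 0.05. Pdgfra is the gene filled in 3 of the 4 panels, at -0.32, -0.24 and -0.33.

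Olig1 encodes a transcription factor found throughout the oligodendrocyte lineage, in precursors and in mature cells. It lies on chromosome 16 (91269769 to 91271939). Naive mice ran from 10.49 to 11.16 (median 10.96), epileptic vehicle mice from 10.18 to 11.19 (median 10.76), mice at 3 mg/kg from 10.05 to 11.16 (median 10.70) and mice at 30 mg/kg from 9.97 to 10.98 (median 10.66). The groups overlapped and no comparison passed in the reported fit, which had no block. In that fit the 95% interval was -0.49 to 0.06 for epilepsy and -0.30 to 0.12 for 30 mg/kg against epileptic vehicle. With sets or runs blocked, 30 mg/kg passed against epileptic vehicle and against naive mice, as given below. The difference in epilepsy passed under 1 of 16 alternatives, median scaling with sets blocked (-0.24, limma adjusted p = 0.0179).

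Olig1 differed far more between sets of sample numbers than between groups, although the groups were spread unevenly over the sets. After group means were removed, 75.6% of its remaining sum of squares lay between sets, beside 6.44 to 15.0% for the other 5 genes, and the second run was 0.33 higher than the first on the log2 scale. Naive mice had a mean of 10.71 in the first run and 11.13 in the second, and epileptic vehicle mice 10.58 and 10.92. The lowest of the 7 sets had a mean of 10.29 and lay in the first run, and the highest had a mean of 11.03 and lay in the second.

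When the set was entered as a block, the log2 difference of Olig1 at 30 mg/kg from epileptic vehicle was -0.23 ± 0.06 (limma adjusted p = 0.00204), and with the run entered it was -0.26 ± 0.10 (limma adjusted p = 0.0365). Its mean was lower in 6 of 6 sets that held both groups, most with a single mouse in 1 of them, with differences of -0.43 to -0.08. Under median scaling with sets as a block it did not pass (-0.15, limma adjusted p = 0.0697). Against naive mice the 30 mg/kg difference was -0.30 without a block (limma adjusted p = 0.0935), -0.36 when sets were blocked (0.000397), -0.42 when runs were blocked (0.00669), -0.33 with array weights (0.0231) and -0.39 under median scaling with sets blocked (0.000567). Between the doses it did not pass under any of 16 alternatives, although 5 of 5 sets, most with a single mouse in 1 of the dose groups, had the lower mean at 30 mg/kg. At 3 mg/kg the log2 difference from epileptic vehicle was 0.03 without a block and -0.04 with the set as a block, and neither passed.

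**Figure D4:**
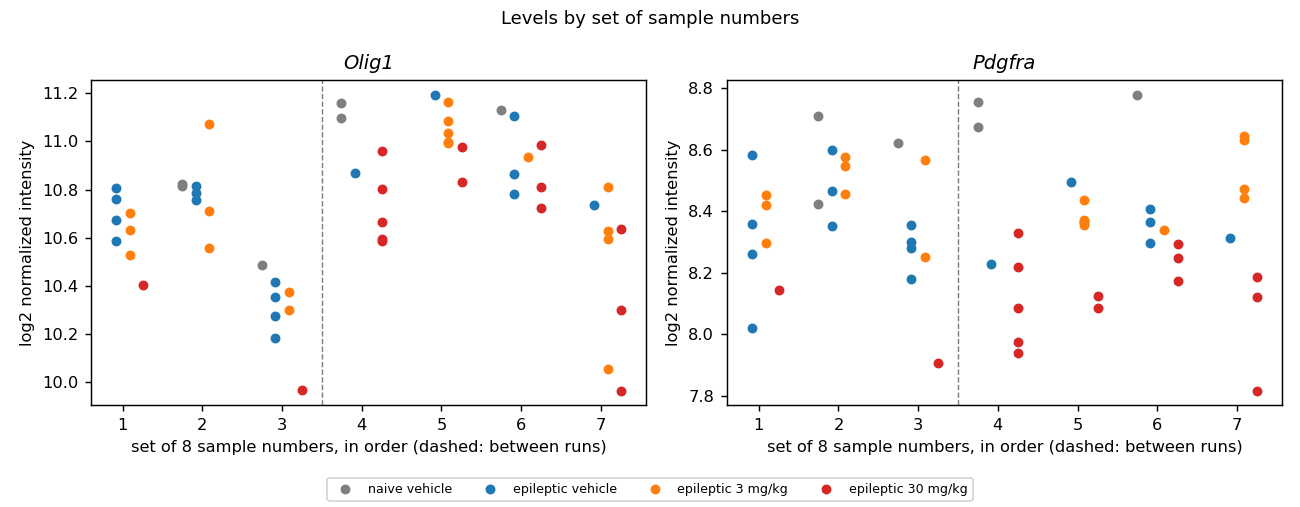
Log2 normalized intensity of Olig1 (left) and Pdgfra (right) by set of 8 sample numbers (x axis, in order), with the dashed line between the 2 runs and colours for the groups. Olig1 shifts from set to set by more than the groups differ, and in the 6 sets that hold both, the mean at 30 mg/kg is below that of epileptic vehicle mice for both genes. In most of these 6 sets, 1 of these groups is a single mouse.

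Cspg5 encodes neuroglycan C, a proteoglycan of precursors that astrocytes and neurons also make. It lies on chromosome 9 (110243783 to 110262576). Its medians were close, 10.27 in naive mice (range 9.93 to 10.39), 10.39 in epileptic vehicle mice (9.88 to 10.71), 10.26 at 3 mg/kg (9.30 to 10.67) and 10.24 at 30 mg/kg (10.04 to 10.59). No comparison passed under any of 16 alternatives. Its log2 difference between epileptic vehicle and naive mice was 0.14 (95% interval -0.07 to 0.35), and -0.02 under median scaling. Against epileptic vehicle mice the interval was -0.25 to 0.05 at 3 mg/kg and -0.27 to 0.05 at 30 mg/kg.

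Neu4 encodes a sialidase enriched in precursors, and lies on chromosome 1 (94020493 to 94028334). Its level was close to background in every group, with medians of 7.21 in naive mice (range 7.13 to 7.32), 7.29 in epileptic vehicle mice (7.12 to 7.52), 7.23 at 3 mg/kg (7.08 to 7.36) and 7.19 at 30 mg/kg (7.07 to 7.36). The high dose differed from epileptic vehicle by -0.08 ± 0.03 on the log2 scale (limma adjusted p = 0.0327), and all but 2 of its 15 mice lay below the vehicle median. This call was lost with the set or the run as a block (adjusted p = 0.0673 and 0.106), with median scaling (0.18, and 0.282 with sets blocked), with only both compared groups in the fit (0.0562), within either run (0.684 and 0.438), and on leaving out any of 7 single mice (highest 0.068). Those mice were replicates 3, 7, 11 and 14 of the epileptic vehicle group and 8, 11 and 15 of the 30 mg/kg group.

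The 3 probes of Neu4 gave the same direction at 30 mg/kg but different sizes. Adjusted over 14058 probes, the probe detected on 51 of 56 arrays had a log2 difference of -0.17 from epileptic vehicle (limma adjusted p = 1.97e-05) and of -0.12 from 3 mg/kg (limma adjusted p = 0.0135). The highest of the 15 values of this probe at 30 mg/kg was 7.18, below the vehicle median of 7.27. The probe detected on 26 of 56 arrays differed by -0.07 from vehicle and did not pass (limma adjusted p = 0.062). In epileptic vehicle against naive mice the 3 log2 differences were 0.06, 0.10 and 0.02 in the same probe order (the used probe first), and the second passed over probes (limma adjusted p = 0.036).

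The other genes of the PDGF pathway are given beside Pdgfra. Of 6 listed ligand and receptor genes, Pdgfra included, 5 were measured, while Pdgfd was not. Pdgfa, the main ligand of the Pdgfra receptor, ran from 10.01 to 10.30 in naive mice, from 9.64 to 10.28 in epileptic vehicle mice, from 9.81 to 10.44 at 3 mg/kg and from 10.04 to 10.51 at 30 mg/kg. It was lower in epilepsy (-0.19 ± 0.07, limma adjusted p = 0.0243) and higher than in epileptic vehicle mice both at 3 mg/kg (0.13, limma adjusted p = 0.0497) and at 30 mg/kg (0.21 ± 0.05, limma adjusted p = 0.00178), so that at the higher dose ligand and receptor transcripts differed from vehicle in opposite directions. Blocking on the set gave a Pdgfa difference of 0.10 for the low dose (0.0859) and of 0.15 for the high dose (0.0165).

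Pdgfb, the ligand of mural cells, passed in no comparison (-0.20 in epilepsy, limma adjusted p = 0.101), except under median scaling, where it was lower in epilepsy (-0.36, limma adjusted p = 0.00991) and higher with the low dose than with epileptic vehicle (0.26, limma adjusted p = 0.0129). Pdgfc was higher in epilepsy (0.17, limma adjusted p = 0.0317) but not under median scaling (0.14, limma adjusted p = 0.091), on a probe close to background. Pdgfrb, the related receptor of pericytes, differed by -0.07 from epileptic vehicle at 30 mg/kg (limma adjusted p = 0.054) and by -0.13 from naive mice (limma adjusted p = 0.00773). Between the doses its difference was -0.09 ± 0.03 (unadjusted p = 0.00204, limma adjusted p = 0.0685), on a probe close to background. The related kinase genes Csf1r, Kit and Flt3 were not among the measured genes.

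Other genes enriched in precursors were taken from a list of 15, of which 7 were measured. In epilepsy 2 of the 7 were lower and 1 higher, beside 26.5% and 22.6% of all genes, with a median log2 difference of -0.04 beside -0.005 for all genes. With median scaling 3 were lower and 0 higher. Cacng4, an AMPA receptor regulatory subunit, was lower in epilepsy (-0.20 ± 0.03, limma adjusted p = 3.49e-07) and lower at 30 than at 3 mg/kg (-0.09, limma adjusted p = 0.031), the latter not when sets were blocked (0.143). Its probe was close to background, with means of 7.18 in epileptic vehicle and 7.38 in naive mice. Sox8, a relative of Sox10, was lower in epilepsy (-0.22 ± 0.06, limma adjusted p = 0.00194) and differed by 0.01 between 30 mg/kg and epileptic vehicle. Emid1 was higher in epilepsy (0.13, limma adjusted p = 0.0264) and lower at 3 mg/kg (-0.10, limma adjusted p = 0.0259), and neither passed under median scaling or when sets were blocked. The Emid1 probe was also close to background. At 30 mg/kg 0 of the 7 passed against epileptic vehicle, 1 of them (Cacng4) at an unadjusted p under 0.05.

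Genes of later stages of the lineage are given beside these. Of 7 measured genes of differentiating oligodendrocytes, 3 were higher in epilepsy and 3 lower at 30 mg/kg against epileptic vehicle, while 0 passed between the doses (1 at an unadjusted p under 0.05). Among all genes 22.6% were higher in epilepsy and 15.7% lower at 30 mg/kg. Bcas1, a marker of early myelinating cells, was higher in epilepsy by 0.53 ± 0.10 (limma adjusted p = 1.59e-05) and differed from epileptic vehicle by -0.44 ± 0.08 at 30 mg/kg (limma adjusted p = 1.13e-05) and by -0.43 at 3 mg/kg. Under median scaling 1 was higher in epilepsy and 1 lower at 30 mg/kg, Bcas1 in both. Of 13 measured myelin genes, 4 were lower in epilepsy and 1 higher, near the shares of all genes (26.5% lower and 22.6% higher). The lower ones included Cldn11, a tight junction protein of myelin (-0.47, limma adjusted p = 0.00098), and the higher was Mbp, myelin basic protein (0.19, limma adjusted p = 0.0102). The high dose differed from epileptic vehicle by 0.30 for Cldn11 and by -0.21 for Mbp (limma adjusted p = 0.00778 and 0.000569). Under median scaling 3 myelin genes were higher and 1 lower there, beside 20.4% and 8.27% of all genes. Between the doses 0 of 13 passed (1, Mal, at an unadjusted p under 0.05).

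Cell cycle genes were considered because precursors are the main dividing cells of the adult brain. Of 14 listed genes 6 were measured, and 2 were higher with the high dose than with epileptic vehicle (1 under median scaling) and 0 lower, beside 16.3% higher and 15.7% lower among all genes. Mcm5, a subunit of the replicative helicase, was higher by 0.32 ± 0.05 (limma adjusted p = 9.18e-06) and also higher than at 3 mg/kg, by 0.25 (limma adjusted p = 0.00433). Mcm2 was higher by 0.07 (limma adjusted p = 0.0415), on a probe close to background. In epilepsy 1 gene was higher, Tyms (0.12, limma adjusted p = 0.0101), and 0 lower, beside 22.6% and 26.5% of all genes. Its probe was also close to background. At 30 mg/kg against naive mice Mcm5 (0.25, limma adjusted p = 0.00623) and Tyms (0.14, 0.00767) were higher, beside 13.1% of all genes. Median scaling left 1 higher there. Which cells carried these differences was not tested.

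Other cell types moved with the same groups. Among all genes 22.6% were higher and 26.5% lower in epilepsy. Against epileptic vehicle 16.3% were higher and 15.7% lower with the high dose, and 18.5% and 16.9% with the low dose. Between the doses 1.25% were lower with the high dose. Under median scaling 7.76% were lower with the low dose and 8.27% with the high dose, against epileptic vehicle. Of 10 measured microglial genes, 9 were higher in epilepsy. Against epileptic vehicle 9 were lower with the high dose and 8 with the low dose, and 5 were lower with the high than the low dose. Median scaling left 5 lower with the low dose and 8 with the high dose. Their mean log2 level lay between 8.04 and 8.20 in naive mice, 8.60 and 9.51 in epileptic vehicle mice, 8.38 and 9.03 at 3 mg/kg, and 8.00 and 8.68 at 30 mg/kg. Of 9 astrocyte genes 5 were higher in epilepsy (mean level 9.99 to 10.12 in naive and 10.25 to 10.86 in epileptic vehicle mice), and against epileptic vehicle 5 were lower with the high dose (10.01 to 10.65) and 4 with the low dose (10.13 to 10.73). These counts were 3 and 2 under median scaling, and also 3 and 2 when sets were blocked. All 6 measured neuronal genes were lower in epilepsy (12.17 to 12.37 in naive, 11.45 to 11.73 in epileptic vehicle mice) and against epileptic vehicle 5 of them were higher with the high dose (11.63 to 12.15) and 6 with the low dose (11.71 to 12.13). Their part in the levels of the precursor genes was not tested.

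Pdgfra and Cspg4 are also made by vascular cells, so the markers of those cells are given beside them. Of 6 measured genes of perivascular fibroblasts, which carry Pdgfra, 3 were higher in epilepsy, where Pdgfra was lower, and at 30 mg/kg 0 passed against epileptic vehicle (0 at an unadjusted p under 0.05) or against 3 mg/kg (2 at an unadjusted p under 0.05, Dcn and Slc6a13, both lower). Of all genes 22.6% were higher in epilepsy. The count of fibroblast genes there was 1 under median scaling and 2 when sets were blocked. At the low dose 1 was higher than with epileptic vehicle, beside 18.5% of all genes. There were 2 under median scaling, beside 29.7% of all genes, and 5 when sets were blocked. The mean level of the fibroblast genes lay between 8.47 and 9.31 in naive mice and between 8.90 and 9.66 in epileptic vehicle mice. It lay between 8.85 and 9.97 at 3 mg/kg and between 8.44 and 9.89 at 30 mg/kg. Of 9 measured pericyte and mural genes, which include Pdgfrb, 2 were higher in epilepsy (Higd1b and Tagln, 1 when sets were blocked) and 0 lower, beside 22.6% and 26.5% of all genes. With the high dose 5 were lower than with epileptic vehicle (2 when sets were blocked) and 0 higher, beside 15.7% and 16.3% of all genes. With the low dose 2 were higher and 2 lower, beside 18.5% and 16.9%. Between the doses 0 of the 9 passed (4 at an unadjusted p under 0.05). Their mean level lay between 8.02 and 8.34 in naive mice, 8.04 and 8.59 in epileptic vehicle mice, 8.03 and 8.57 with the low dose, and 7.88 and 8.36 with the high dose. The part of these cells in the Pdgfra and Cspg4 values was not tested.

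Among mice of the same group the 6 genes did not vary as 1 unit. With group means removed, 15 pairs were correlated over 56 mice (2-sided permutation test within groups, 100000 resamples, Benjamini-Hochberg over the 15 pairs), and 4 passed for Pearson's r. Gpr17 went with Neu4 (r = 0.56, permutation p = 1e-05, the smallest the resamples can give, adjusted p = 0.00015; rho = 0.40, permutation p = 0.00194, adjusted p = 0.0145) and with Cspg5 (r = 0.57, permutation p = 0.00012, adjusted p = 0.0009; rho = 0.45, permutation p = 0.00062, adjusted p = 0.0093). Without the 2 mice farthest from the Gpr17 median r fell to 0.44 and 0.35. Over all 56 mice with the sets also removed it was 0.57 and 0.58. Within the 2 runs it was 0.62 and 0.52 for Neu4 and 0.44 and 0.66 for Cspg5. Without both arrays that stood apart it was 0.50 for Neu4 and 0.38 for Cspg5. Of these arrays, replicate 18 at 3 mg/kg had the lowest value of its group for Gpr17, Cspg5, Olig1 and Neu4.

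Pdgfra went with Olig1 (r = 0.35, permutation p = 0.0101, adjusted p = 0.0378; rho = 0.26, permutation p = 0.0556, adjusted p = 0.278), and with the sets removed r was 0.46. Within the first and the second run r was 0.44 and 0.26, and it was 0.28 without the 2 farthest mice. Olig1 also went with Cspg5 (r = 0.36, permutation p = 0.00726, adjusted p = 0.0363; rho = 0.22, permutation p = 0.11, adjusted p = 0.413), at 0.31 and 0.35 within the runs, 0.38 with sets removed and 0.26 without the 2 farthest mice. Without both arrays that stood apart r was 0.37 for Pdgfra with Olig1 and 0.25 for Olig1 with Cspg5. Neither pair passed by rank. Pdgfra and Cspg4, the classical pair of precursor markers, had an r of 0.17 (permutation p = 0.199, adjusted p = 0.374; rho = 0.18, permutation p = 0.188, adjusted p = 0.418), and Pdgfra and Gpr17 an r of 0.04 (permutation p = 0.776, adjusted p = 0.831; rho = 0.07, permutation p = 0.629, adjusted p = 0.673).

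**Figure D5:**
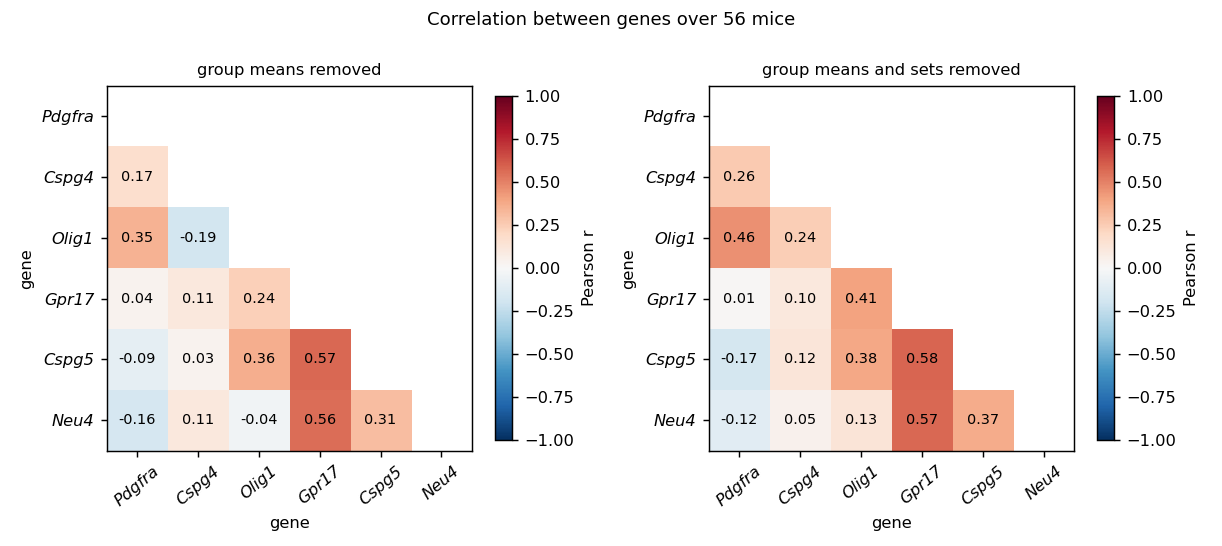
Pearson r for each pair of the 6 genes (both axes) over 56 mice, with group means removed (left) and with the sets of sample numbers also removed (right). The pairs of Gpr17 with Cspg5 and Neu4 are the strongest in both panels, at 0.56 to 0.58, and Pdgfra with Olig1 goes from 0.35 to 0.46.

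The genes whose pattern was most like each member over the 56 mice, with group means removed, are given as a description. For Pdgfra they were Ergic1 (r = 0.63), Gad1, the GABA-synthesizing enzyme of interneurons (r = 0.62), and Slc12a2, a chloride importer (r = 0.58). For Gpr17 the leading gene was Lims2 (r = 0.83), which overlaps it in the genome, followed by Olfml1 (0.69) and Fut10 (0.67). Cspg5 was followed by Cmtm5 (0.83), Acss1 (0.81) and Mmd2 (0.81), and Cspg4 by Atg2a (0.49), Syt3 (0.49) and Rnf123 (0.47). Neu4 was closest to Gpr17 itself (0.56), then Igbp1 (0.55) and 1190005I06Rik (0.54). The neighbours of Olig1 were Phax (0.82), Epm2aip1 (0.81) and Ctnnb1 (0.78), and with the sets removed these fell to 0.37, 0.19 and 0.34, whereas Lims2 with Gpr17 was 0.85 and Gad1 with Pdgfra 0.66.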

How the data were processed

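Hippocampal RNA of 56 mice was hybridised to Illumina MouseRef-8 v2 arrays. The authors deposited probe intensity values from GenomeStudio 2011.1, not background subtracted or normalized, and beside each deposited intensity a detection p-value. They also deposited log2 values made with lumi and quantile normalization (version not given in the sources used here), which were an alternative; all 56 columns matched their own array. Here intensities were log2 transformed and quantile normalized, the filter kept 14058 of 25697 probes (detection p under 0.05, 6 arrays or more), and each gene was read from its brightest kept probe. Of all probes 23978 had 1 gene, 0 several and 1719 none listed; symbols were updated through RefSeq (GRCm38.p6). Differences were tested with limma 3.58.1 in R 4.3.3, with all 4 groups in 1 model, no covariates and Benjamini-Hochberg adjustment over 9893 genes at 0.05, and the script was tested on simulated data. Values printed as adjusted p without a tool name are from this test. Groups came from the sample titles; the labels do not tie the mice to litters. The closest 2 arrays correlated at 0.995. The number of arrays limits the precision. Alternatives were another background correction, scaling, filter, probe summary, array weights, blocks and leaving out mice or arrays. Named genes were all members, the PDGF genes, up to 3 genes of smallest p per list and comparison, and the 3 closest genes of each member. The members and lists were chosen with earlier results of these data known. Deviations of same-numbered mice had a median correlation of 0.048 over 65 pairs, and 19 exceeded 0.1. For mice of other replicate numbers it was -0.005 over 1066 pairs, and 302 exceeded 0.1. Some same-numbered mice also shared a run, so these values cannot tell whether replicate numbers pair the mice. Sets and runs of sample numbers left a trace. The median was 0.095 for mice of the same set and -0.014 for other sets, and 0.065 for the same run and -0.072 for the other run. The reported fit did not account for this, and the fits with blocks did.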

Additional observations from a re-analysis of the deposited data

How the results depend on the processing

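Counts of the 6 genes past the threshold were unchanged or within 1.5 times in the other fits than these. With median scaling the count against epileptic vehicle was 1 for the low and 1 for the high dose. It was 1 for the low dose with array weights, and also 1 without both arrays that stood apart, and 1 at 30 mg/kg with the 2 compared groups alone. Within the first run it was 0 at 30 mg/kg against epileptic vehicle, 0 between the doses, 0 at 3 mg/kg and 1 at 30 mg/kg against naive mice. Within the second run it was 1 in epilepsy, 1 at 30 mg/kg against epileptic vehicle and 1 at 3 mg/kg against naive mice. Median scaling with the set as a block, chosen after seeing the data like the fit without both arrays, gave 2 at 3 mg/kg and 0 at 30 mg/kg against epileptic vehicle. Leaving out each mouse gave 0 to 1 at 3 mg/kg (Pdgfra passed without epileptic vehicle replicate 1 or 6 or 3 mg/kg replicate 7, lowest adjusted p 0.0348) and 1 to 2 at 30 mg/kg against epileptic vehicle. Among values of single genes under the 16 alternatives, 524 kept their direction and side of the threshold, 23 lost and 12 gained a call, and 17 changed sign.

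The reversed values were of genes that did not pass in that comparison as reported. Under median scaling they were -0.022 for Cspg5 in epilepsy, -0.027 and -0.075 for Cspg5 at 3 and 30 mg/kg against naive mice, and 0.00041 for Neu4 at 3 mg/kg against epileptic vehicle. Olig1 at 3 mg/kg against epileptic vehicle was -0.039 with sets and -0.038 with runs as a block. Within the first run, Cspg5 and Neu4 at 30 mg/kg against naive mice were -0.077 and 0.048. Within the second run Neu4 was -0.012 in epilepsy and -0.018 at 3 mg/kg against naive mice, and Cspg4, Olig1 and Gpr17 at 3 mg/kg against epileptic vehicle were -0.018, -0.095 and -0.056. Median scaling with the set as a block gave 0.011 and 0.025 for Cspg5 and Neu4 at 3 mg/kg, 0.018 for Cspg4 at 30 mg/kg, all against epileptic vehicle, and -0.0054 for Cspg5 at 30 mg/kg against naive mice. Leaving out each mouse moved Cspg5 from -0.062 to 0.018 between the doses, from -0.026 to 0.067 at 30 mg/kg and from -0.021 to 0.096 at 3 mg/kg against naive mice, and Olig1 from -0.0038 to 0.069 at 3 mg/kg against epileptic vehicle; Olig1 at 30 mg/kg against naive mice passed without naive replicate 3 (adjusted p 0.0402). The causes were not tested.

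The replicate block, which pairs mice by title number, changed no call of the 6 genes (counts 3, 0, 2, 1, 2 and 3; Pdgfra -0.22 at 30 mg/kg and -0.32 between the doses). The run-by-group interaction was fitted for epilepsy and for each dose against epileptic vehicle, and none of the 6 genes passed (limma, lowest adjusted p 0.998; over all genes 0, 0 and 1 passed, and 185, 363 and 333 had an unadjusted p under 0.05). It was not fitted for the other 3 comparisons. Cspg4 and Neu4 are limited by signals close to background, as are Cacng4, Emid1, Pdgfc, Pdgfrb, Mcm2, Tyms and Tagln among the other named genes. Each of the 6 genes but Neu4 rests on 1 probe.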
